A study of Mus musculus with 56 samples.

Results

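The sarcomere is the contractile unit of the heart muscle cell, and 9 genes that encode its parts were followed in the mouse heart over 24 h under inverted feeding. They were taken by gene symbol from a table of 22864 genes: Myh6, Myh7, Myl2 and Mybpc3 of the thick filament, Actc1, Tnnt2 and Tnni3 of the thin filament, and Ttn and Tcap, which run along or anchor the filaments. All 9 members were listed, and 9 of 9 passed the filter of a mean level of 1 TPM or more (TPM, reads per base of exon, scaled to the same total in every library), beside 13869 genes that passed it in all. The rhythm of Tcap was set beside those of the abundant contractile genes.

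Hearts came from C57BL/6J female mice of 9 weeks that were kept with the light on for 12 h and off for 12 h and were fed either in the day (daytime-restricted feeding, DRF) or in the night (nighttime-restricted feeding, NRF) for 7 days. Tissue was collected every 4 h at 7 zeitgeber times, ZT0 being the time at which the light went on and ZT24 the same time a day later, with 4 libraries in each of the 14 groups and 56 libraries in all. NRF is the regimen that leaves food at the active time of a nocturnal animal, and no group with free access to food was analysed here. The labels number the replicates without saying that each is a separate animal, so p-values measure the spread between these libraries, which may in part be technical.

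In the sarcomere, myosin of the thick filament pulls on actin of the thin filament, and each pull is permitted when calcium binds the troponin complex. Alpha-myosin heavy chain (Myh6) is the fast isoform that dominates the adult mouse ventricle, and beta-myosin heavy chain (Myh7) is the slow isoform of the fetal and the stressed heart. Titin (Ttn) spans from the Z-disc to the M-band as a molecular spring, and telethonin (Tcap) caps its end at the Z-disc. Tcap is known as a gene that is driven by the cardiac circadian clock, whereas the filament proteins themselves are long-lived.

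Each library held between 29527844 and 53421005 assigned reads, with a median of 37681309, of which the 9 genes took 3.63% to 4.88%. Myh7, the least abundant of them, still had between 1689 and 5149 reads in each library. Mitochondrial genes took 16.5% to 24.7% of the reads. Of markers fixed for the ventricular cardiomyocyte, 8 of 8 were listed, with a summed level of 28498 to 43578 TPM, 5 of them being among the 9 genes. Of the skeletal muscle markers 4 of 6 were listed, Myh4 and Myh1 not among them, with a summed level of 879 to 1618 TPM. Most of it came from genes that the heart also expresses, the creatine kinase Ckm (691 to 1065 TPM) and the actin Acta1 (90.8 to 651 TPM), while the fast skeletal light chain Mylpf had 1.21 to 3.25 TPM and Tnnt3 0.198 to 1.15 TPM. In bulk tissue, fewer cells of a type and less RNA per cell cannot be told apart.

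A pair of libraries went against their labels. Over 1095 genes outside the 9 whose rhythm differed between regimens (limma adjusted p under 0.001 with the labels as given), each library was correlated with the mean profile of every group. The library labelled DRF ZT4 replicate 1 had r = -0.22 with its own group and its highest value, 0.82, with NRF ZT8. The library labelled NRF ZT8 replicate 1 had r = -0.15 with its own group and its highest value, 0.73, with DRF ZT4. The other 54 libraries had r of at least 0.51 with their own group, with a median of 0.81, and 47 of them were most like their own group, while 7 were more like 1 or 2 other groups. Both were kept as labelled, and results that rest on them are also given without them.

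The 9 genes covered a wide range of abundance. On the TPM scale, which divides by exon length and so allows levels to be set side by side between genes, the medians over 56 libraries ran from 11350 for Actc1 (cardiac alpha-actin, rank 9 among the listed genes) over 6981 for Myl2 (ventricular regulatory light chain, rank 14), 4936 for Myh6 (rank 20), 4304 for Tnni3 (cardiac troponin I, rank 23) and 2010 for Tcap (rank 35). Tnnt2 (cardiac troponin T) had a median of 1347 TPM, Mybpc3 (cardiac myosin-binding protein C) 1239 TPM, Ttn 41.2 TPM and Myh7 23.1 TPM. Tcap varied the most between libraries: its coefficient of variation was 54.3%, beside 6.87% for Tnni3 at the low end and 23.3% for Myh7, the next highest.

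The deviations of the libraries from their group means show which of the 9 genes varied together apart from time and regimen. Over 56 libraries, the 36 pairs had r from -0.38 (Tnni3 and Ttn) to 0.73 (Myh6 and Mybpc3), with a median of 0.26. Myh6 and Ttn had 0.64, Tnnt2 and Tnni3 0.61, and Myl2 and Tnni3 0.57. Tcap had its highest value with Myh6, at 0.40. Mybpc3, far more abundant than Myh7 and Ttn, had 0.55 with Myh7 and 0.51 with Ttn, and Myh7 and Ttn had 0.61. Within groups these genes and Myh6 also moved with the length slope of a library, the slope of log2 level on log2 exon length over 6775 genes (r = 0.83 for Ttn, 0.67 for Myh6, 0.54 for Mybpc3 and 0.49 for Myh7, and 0.07 for Tcap). Each point shares its library, and the part of the slope in these correlations was not tested.

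For Mybpc3, Myh7, Tnnt2 and Ttn, the 250 bases before a RefSeq transcription start are given below (GRCm38.p6, read 5′ to 3′ on the gene's strand), chosen because they hold a motif of a muscle transcription factor and overlap no annotated exon. The window of Myh6, which also holds an M-CAT motif, and a second Myh7 window, which holds none of the motifs searched, overlap exons and are not shown. Neither is a window of Actc1 with a CArG box, the site of serum response factor, which overlaps an exon. Capitals mark an M-CAT motif, the site of TEAD factors (CATTCC or its reverse GGAATG), in Myh7 (chr14:54994627-54994876, minus strand) and Tnnt2 (chr1:135836084-135836333, plus strand), and a MEF2 site in Mybpc3 (chr2:91117894-91118143, plus strand) and Ttn (chr2:76982548-76982797, minus strand).
Myh7: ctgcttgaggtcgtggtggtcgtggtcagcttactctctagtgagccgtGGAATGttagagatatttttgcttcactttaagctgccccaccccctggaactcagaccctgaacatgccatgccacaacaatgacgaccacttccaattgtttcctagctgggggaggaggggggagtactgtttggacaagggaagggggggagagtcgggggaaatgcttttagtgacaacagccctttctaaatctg
Tnnt2: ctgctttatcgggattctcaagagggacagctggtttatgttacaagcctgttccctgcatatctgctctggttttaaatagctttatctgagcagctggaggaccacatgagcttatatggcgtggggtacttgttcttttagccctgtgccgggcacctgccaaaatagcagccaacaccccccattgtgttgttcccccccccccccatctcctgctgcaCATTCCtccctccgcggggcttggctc
Mybpc3: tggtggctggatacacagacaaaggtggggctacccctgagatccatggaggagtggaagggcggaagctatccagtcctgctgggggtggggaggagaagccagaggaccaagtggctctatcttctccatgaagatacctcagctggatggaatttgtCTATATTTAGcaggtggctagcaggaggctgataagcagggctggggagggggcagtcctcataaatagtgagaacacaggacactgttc
Ttn: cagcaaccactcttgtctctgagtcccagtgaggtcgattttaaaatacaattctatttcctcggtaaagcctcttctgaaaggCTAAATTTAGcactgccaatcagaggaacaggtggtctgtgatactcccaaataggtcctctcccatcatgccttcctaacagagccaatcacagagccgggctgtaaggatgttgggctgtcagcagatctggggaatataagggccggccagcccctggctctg
The RefSeq promoter table held an entry for 8 of the 9 genes, all except Tcap. Both strands were searched. Of 32817 promoter windows of the same length, 12.6% held the M-CAT letters, 0.509% the MEF2 site and 1.47% the CArG box. The E-box CACGTG, the site of the clock factors CLOCK and BMAL1, was in 6.02% of all windows and in none of those of the 8 genes, and the D-box TTANGTAA, the site of DBP and its relatives, in 2.06% and in none of theirs. The half-site AGGTCA of the ROR and REV-ERB receptors was in 14% of all windows and in 1 of those of the 8 genes, a window of Myl2. These matches are of letters in a window and say nothing of binding.

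Tcap had the largest fitted amplitude of the 9 genes under both regimens. Under NRF it rose from its lowest level at the end of the dark phase to its highest at the switch from light to dark, and under DRF it peaked earlier and swung less. The gene lies on chromosome 11 of GRCm38 (98383811 to 98384953, plus strand), with a combined exon length of 948 bases.

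Under NRF, the 4 libraries of ZT0 had Tcap levels of 1136, 1232, 1268 and 1309 TPM (mean 1236 ± 74.0, SD, n = 4). Those of ZT4 had 1676, 1848, 1997 and 2282 TPM (1951 ± 257). Those of ZT8 had 2024, 5207, 5483 and 5729 TPM (4611 ± 1738). The lowest ZT8 value is the library labelled NRF ZT8 replicate 1, and the other 3 libraries of that time stood above all ZT0 and ZT4 libraries. At ZT12 the levels were 4742, 5089, 5132 and 5550 TPM (5128 ± 331). At ZT16 they were 2503, 2832, 2940 and 3246 TPM (2880 ± 307). The 4 libraries of ZT12 stood above the 4 libraries of ZT16 with no overlap. At ZT20 the levels were 1314, 1488, 1604 and 1777 TPM (1546 ± 195). At ZT24 they were 923, 954, 1004 and 1302 TPM (1046 ± 174). The day thus closed near the level at which it had opened, and the ZT24 and ZT0 libraries overlapped.

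Under DRF, the 4 libraries of ZT0 had Tcap levels of 2311, 2593, 2597 and 2876 TPM (2594 ± 231). Those of ZT4 had 1994, 2064, 2564 and 4884 TPM (2877 ± 1362), the highest being the library labelled DRF ZT4 replicate 1. Those of ZT8 had 1985, 2414, 2429 and 3177 TPM (2501 ± 495). These 3 groups overlapped each other and formed a plateau through the light phase. At ZT12 the levels were 1824, 2194, 2241 and 2593 TPM (2213 ± 315). At ZT16 they were 1452, 1563, 1686 and 2773 TPM (1868 ± 610.5). At ZT20 they were 1077, 1323, 1553 and 1590 TPM (1385 ± 237). Tcap reached its DRF minimum at ZT20, where every library was below every ZT0 library. At ZT24 the levels were 1383, 1548, 1723 and 2672 TPM (1832 ± 577). At this same time of day, 3 of the 4 libraries lay below all ZT0 libraries, although the cosine takes both times as equal, and the log2 difference ZT24 minus ZT0 was -0.55 (limma adjusted p = 0.308).

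**Figure D1:**
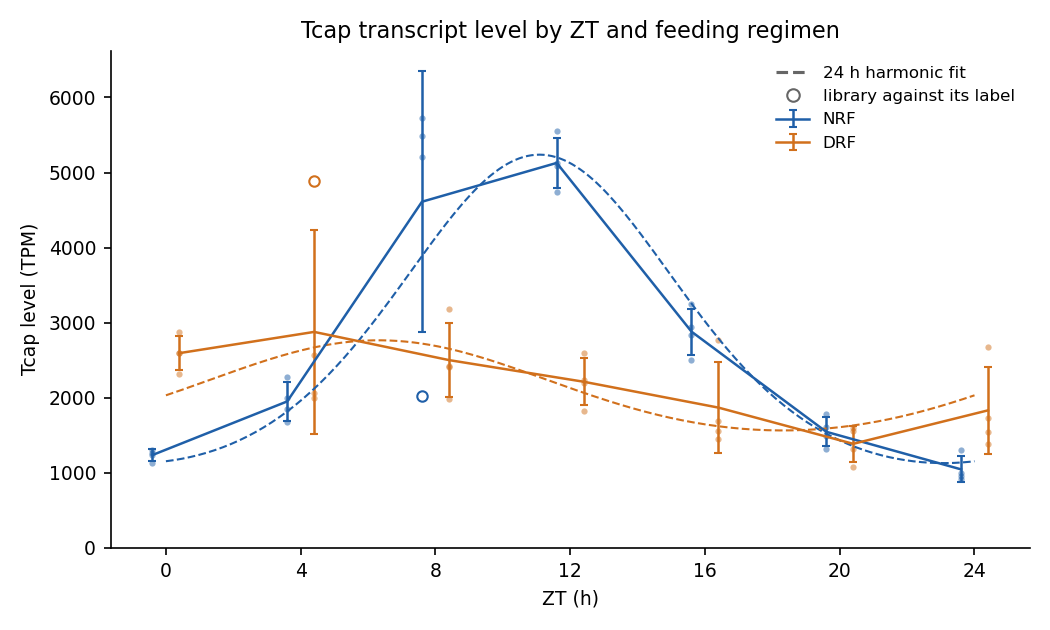
Tcap level (TPM, linear axis) against zeitgeber time (h) under NRF and DRF. Points are single libraries, bars are the mean ± SD (n = 4), and open circles are the 2 libraries that went against their labels. NRF climbs to 5128 TPM at ZT12 and returns to 1046 TPM at ZT24, while the DRF means stay between 1385 and 2877 TPM. Without the 2 libraries the highest DRF mean is 2594 TPM.

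The rhythm was tested with a 24 h cosine fitted by limma to log2(TPM + 1) within each regimen, with Benjamini-Hochberg adjustment over all 13869 genes. The amplitude is the distance from the fitted mean to the fitted peak on that log2 scale. Tcap was rhythmic under NRF with an amplitude of 1.11 ± 0.073 (SE) and a peak at ZT11.1 ± 0.28 h (SE), a peak-to-trough fold of 4.64 (limma adjusted p = 1.33e-11, 28 libraries). Under DRF its amplitude was 0.41 ± 0.106 and its peak at ZT6.31 ± 0.87 h, a fold of 1.77 (limma adjusted p = 0.0125). The rhythm differed between regimens (limma interaction F test, adjusted p = 1.63e-08), and the DRF peak came 4.78 h earlier (difference -4.78 h, 95% interval -6.57 to -2.99). The cosine held 89.3% of the variance between NRF libraries and 35.2% of that between DRF libraries.

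Without the 2 libraries that went against their labels, the Tcap amplitude was 1.18 ± 0.053 under NRF and 0.34 ± 0.097 under DRF, and the DRF peak came earlier by 4.22 h (difference -4.22 h, interval -6.10 to -2.34, limma adjusted p = 6.95e-11). The DRF rhythm itself was the less firm of the results: its limma adjusted p was 0.0251 without those 2 libraries, 0.0592 without the libraries numbered 2, 0.0602 without those numbered 3, and 0.188 without ZT20.

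At single times, Tcap was higher under DRF at ZT0 by a log2 difference of 1.07 ± 0.230 (SE), a fold of 2.09 (limma adjusted p = 0.00153), and all 4 DRF libraries stood above all 4 NRF libraries. At ZT12 it was lower under DRF by a difference of -1.22, or 0.429 of the NRF level (limma adjusted p = 0.000868), and again the groups did not overlap. At ZT24 it was higher under DRF by 0.77, a fold of 1.71 (limma adjusted p = 0.0265), with groups that did not overlap. The regimens thus differed in opposite directions at the edges of the light phase. How many of all genes separate without overlap at a single time was not counted, here and for the genes below. The ZT24 difference was lost when any 1 of 4 libraries was left out: DRF replicate 3 (limma adjusted p = 0.152), or NRF replicate 1 (0.056), 3 (0.0737) or 4 (0.0642). It was also lost without the libraries numbered 3 (0.339) or 4 (0.103).

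At ZT8 the Tcap difference was -0.79 with limma adjusted p = 0.0968 over all libraries. Without the 2 libraries against their labels it was -1.15 ± 0.175, or 0.451 of the NRF level (limma adjusted p = 0.000222), and the groups no longer overlapped. At ZT16 the difference of -0.67 had a limma adjusted p of 0.0657 with all libraries and 0.00794 without those 2, with groups that overlapped. The ZT4 difference (0.47, limma adjusted p = 0.413) and the ZT20 difference (-0.17, 0.673) did not pass. Averaged over the 7 times the level of Tcap differed by -0.08 ± 0.088 (interval -0.25 to 0.10, limma adjusted p = 0.546). This average counts the time of day of ZT0 and ZT24 double, where Tcap was higher under DRF. The mean of the fitted cosine was 11.25 under NRF and 11.02 under DRF on the log2 scale, a difference that was not tested. Without the 2 libraries the averaged level differed by -0.16 (interval -0.30 to -0.02, limma adjusted p = 0.0673).

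Of all genes tested, 37.3% were rhythmic under NRF, 32.4% under DRF and 17.7% under both, and 27.7% had a different rhythm. Against this background, 4 of the 9 sarcomere genes were rhythmic under NRF (Tcap, Mybpc3, Myh7 and Myh6), 1 under DRF and under both (Tcap), and 3 had a different rhythm (Tcap, Myh7 and Myh6). At an unadjusted limma p under 0.05 the counts were 5 under NRF and 2 under DRF, but the share of all genes at that threshold was not counted. The median amplitude of the 9 genes was 0.097 under NRF, beside 0.103 for all genes tested, and 0.058 under DRF, beside 0.10. The amplitude was larger under NRF in 6 of the 9, a count that also stands without the share over all genes. The background shares without the 2 libraries against their labels were 43% under NRF, 30% under DRF and 30.6% for a different rhythm.

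Tcap stood far from the rest of the list in amplitude. Its NRF amplitude ranked 24 of 13869 genes, with 0.166% of genes above it, and its DRF amplitude ranked 293, with 2.11% above. Among the 94 genes that averaged 1000 TPM or more, no gene had a larger NRF amplitude than Tcap and 1 had a larger DRF amplitude. The next of them under NRF was mt-Co3, a mitochondrially encoded respiratory subunit, at 0.51. Ratios between the highest and the lowest group mean were 4.90 for Tcap under NRF and 2.08 under DRF, 1.90 for Myh7 under NRF, and 1.09 to 1.61 for the remaining genes and regimens. Without the 2 libraries against their labels the ratios of Tcap were 5.23 under NRF (highest at ZT8) and 1.87 under DRF (highest at ZT0).

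**Figure D2:**
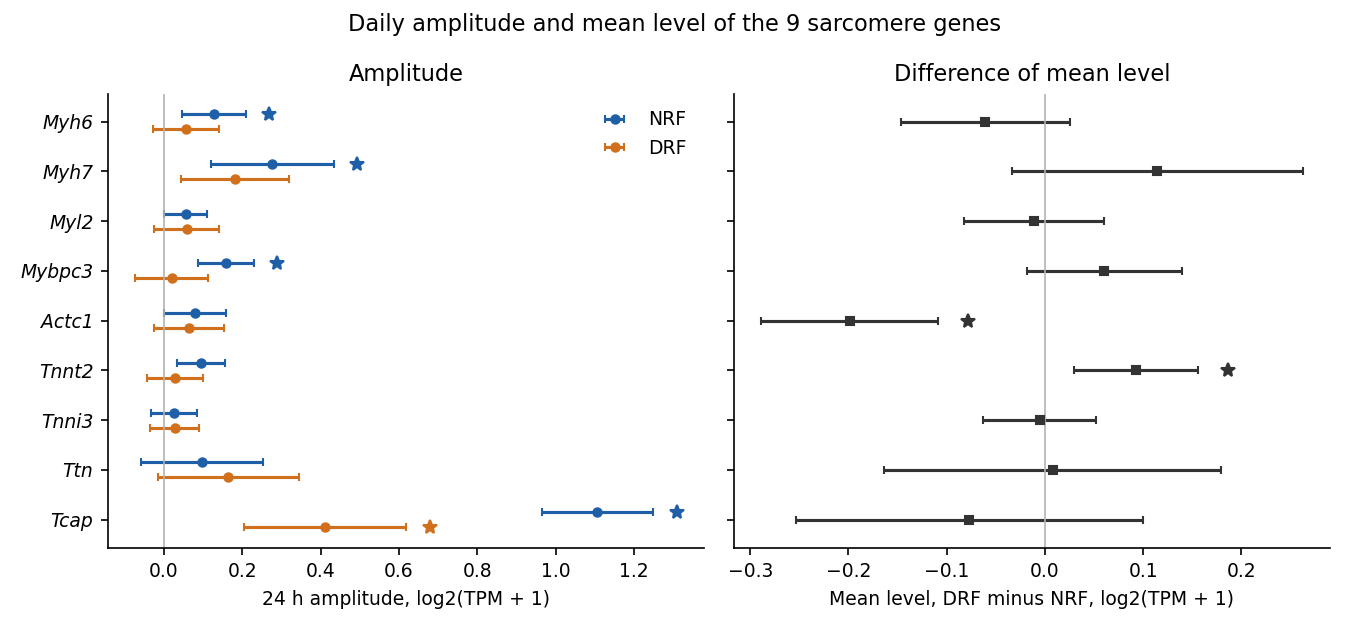
Log2 amplitude of the 24 h cosine under NRF and DRF and the mean log2 level difference DRF minus NRF for the 9 genes (all error bars, 95% interval). Stars mark limma adjusted p under 0.05. Tcap alone reaches an amplitude above 1, and Actc1 (-0.20) and Tnnt2 (0.09) are the 2 genes with a called level difference.

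In the thick filament, Myh6 (chromosome 14, 54941921 to 54966927, minus strand) had a shallow rhythm under NRF. The levels over 28 libraries per regimen ran from 3598 to 6014 TPM under NRF and from 3526 to 5835 TPM under DRF. The NRF amplitude was 0.13 ± 0.041 with a peak at ZT11.4 ± 1.40 h, a peak-to-trough fold of 1.19 (limma adjusted p = 0.0455), and the DRF amplitude was 0.06 ± 0.043 (limma adjusted p = 0.541). The test of the difference gave a limma adjusted p of 0.0499, and it passed the threshold of 0.05 with no room: without the 2 libraries against their labels it was 0.0523, and leaving out a single library ended the call for 39 of the 56 libraries. The NRF call itself, which rests on the 28 NRF libraries alone, was lost for 19 of those 28, for 3 of the 4 replicate numbers and for 5 of the 7 times.

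The Myh6 difference was concentrated at ZT12. The NRF libraries had 5458, 5461, 5838 and 5921 TPM (5670 ± 245) and the DRF libraries 3526, 4130, 4561 and 4585 TPM (4201 ± 496). Every DRF library stood below every NRF library, and the log2 difference was -0.44 ± 0.108, or 0.737 of the NRF level (limma adjusted p = 0.00886). The limma adjusted p was 0.0719 without the DRF ZT12 replicate 3 library and 0.266 without the libraries numbered 3. At the other 6 times the Myh6 groups overlapped.

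Myh7 lies next to Myh6 (chromosome 14, 54970684 to 54994626, minus strand). Under NRF its lowest group was ZT4, with 10.7, 13.5, 16.8 and 16.8 TPM (14.5 ± 2.92), and its highest ZT12, with 19.8, 25.5, 27.5 and 37.0 TPM (27.5 ± 7.13). Under DRF its lowest group was ZT16, with 17, 18.4, 21.9 and 22.2 TPM (19.9 ± 2.59), and its highest ZT24, with 26.2, 27.2, 28.5 and 31.9 TPM (28.5 ± 2.47). Within each regimen these lowest and highest groups did not overlap, and they fell at different times under NRF and DRF. The NRF amplitude was 0.28 ± 0.080 with a peak at ZT14.2 ± 1.16 h (limma adjusted p = 0.0217), and the DRF amplitude 0.18 ± 0.070 with a peak at ZT0.87 ± 1.65 h (limma adjusted p = 0.110).

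The rhythm of Myh7 differed between regimens (limma interaction F test, adjusted p = 0.00435), with fitted peaks 10.7 h apart (interval 6.76 to 14.7). Without the 2 libraries against their labels the distance was 9.60 h (limma adjusted p = 0.00585). All 4 DRF libraries stood below the NRF libraries at ZT16 and above them at ZT20, although the limma tests at those times did not pass (adjusted p = 0.304 and 0.30). At ZT4 the group means were 23.7 TPM under DRF and 14.5 TPM under NRF, with groups that overlapped and no call over all libraries. The ZT4 difference was called without DRF ZT4 replicate 2 (0.84, limma adjusted p = 0.0321) and without the libraries numbered 2 (0.92, 0.0436). The different rhythm was lost without the libraries numbered 3 (limma adjusted p = 0.0763) and without ZT12 (0.0661). The NRF call was lost without the libraries numbered 2 (limma adjusted p = 0.0707), 3 (0.0777) or 4 (0.0961), without ZT4 (0.0789), ZT12 (0.111) or ZT16 (0.0684), and without NRF ZT12 replicate 1, the highest library (0.0520). A DRF call was gained without DRF ZT4 replicate 2 (adjusted p = 0.0189). The longest transcripts of Myh7 (6230 bases) and Myh6 (6113 bases) are 90.7% identical, and 5.43% of the 150-base windows of Myh7 are also in Myh6, so part of the Myh7 reads may have been assigned with less certainty.

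Mybpc3 (chromosome 2, 91118144 to 91136516, plus strand) was rhythmic under NRF. Its NRF libraries had 1228, 1294, 1340 and 1465 TPM at ZT8 (1332 ± 100) and 954, 977, 1110 and 1125 TPM at ZT20 (1041 ± 88.6). The ZT8 libraries stood above the ZT20 libraries with no overlap. The amplitude was 0.16 ± 0.036 with a peak at ZT8.07 ± 0.82 h, a fold of 1.25 (limma adjusted p = 0.00346). Under DRF the amplitude was 0.02 ± 0.048 (limma adjusted p = 0.940), and the DRF group means lay between 1140 and 1315 TPM.

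The rhythm of Mybpc3 was not called different between regimens (limma adjusted p = 0.0543), and it was called without the 2 libraries against their labels (0.0433). It was also called after median of ratios scaling (0.0269), on the deposited values (0.0331), with mitochondrial (0.0464) or blood genes (0.0362) left out of the TPM sum, and without ZT0 (0.0399) or ZT8 (0.0335). At ZT20 Mybpc3 was called higher under DRF after median of ratios scaling (0.32, limma adjusted p = 0.0136), on the deposited values (0.0225), without mitochondrial genes (0.0176) and without the libraries numbered 2 (0.0234). At ZT16 it was called higher after median of ratios scaling (0.04) and with the length slope as a covariate (0.0425). The NRF call was lost without the libraries numbered 4 (limma adjusted p = 0.0738). Myl2 (chromosome 5, 122100951 to 122113472, plus strand) had no called rhythm (amplitude 0.06 under both regimens, limma adjusted p = 0.248 under NRF and 0.509 under DRF). At ZT16 its DRF libraries had 6846, 7280, 8364 and 10027 TPM (8129 ± 1417) and its NRF libraries 6095, 6305, 6904 and 7133 TPM (6609 ± 489). The groups overlapped, and the log2 difference of 0.29 ± 0.087 (fold 1.22, limma adjusted p = 0.0365) was lost when any 1 of 5 libraries was left out, with an adjusted p of 0.058 to 0.30. It was also lost without the libraries numbered 2 (0.20), 3 (0.0954) or 4 (0.248), on the deposited values (0.083), with no filter on low values (0.112) and with the length slope as a covariate (0.112).

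In the thin filament, Actc1 (chromosome 2, 114047282 to 114053548, minus strand) was lower under DRF without a called rhythm. Averaged over the 7 times, its log2 difference was -0.20 ± 0.045 (interval -0.29 to -0.11, limma adjusted p = 0.00102), and -0.19 without the 2 libraries against their labels (0.00165). The difference was widest at ZT0, where the NRF libraries had 10752, 11858, 12592 and 16786 TPM (12997 ± 2636) and the DRF libraries 8657, 8779, 9400 and 10840 TPM (9419 ± 1002). The highest DRF library there overlapped the lowest NRF library, and the log2 difference was -0.45 ± 0.120, or 0.732 of the NRF level (limma adjusted p = 0.00963). The ZT0 call was lost without NRF ZT0 replicate 3 (limma adjusted p = 0.101), and without the libraries numbered 1 (0.102) or 3 (0.0808). The Actc1 amplitude was 0.08 under NRF (limma adjusted p = 0.261) and 0.06 under DRF (0.488).

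Tnnt2 (chromosome 1, 135836354 to 135852260, plus strand) was higher under DRF by a log2 difference of 0.09 ± 0.032 over the 7 times (interval 0.03 to 0.16, limma adjusted p = 0.0240). Its levels ran from 1116 to 1545 TPM under NRF and from 1138 to 1656 TPM under DRF and overlapped between regimens at all 7 times. Without the 2 libraries against their labels the DRF libraries of ZT8, from 1247 TPM, stood above the NRF libraries, which reached 1223 TPM. The call was lost without the libraries numbered 1 (limma adjusted p = 0.0504), 3 (0.382) or 4 (0.164), without ZT0 (0.0622), ZT8 (0.116), ZT12 (0.0547), ZT16 (0.0595) or ZT24 (0.0597), and on the deposited values (0.0861). Its NRF amplitude was 0.09 ± 0.031 with a peak at ZT20.5 ± 1.24 h (limma adjusted p = 0.0520), and 0.11 without the 2 libraries against their labels, where it was called (0.0126). The fitted Tnnt2 peak thus fell late in the night, unlike those of Mybpc3, Myh6, Tcap and Myh7, which were fitted between ZT8.07 and ZT14.2.

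Tnni3 (chromosome 7, 4518305 to 4524229, minus strand) was the steadiest of the 9 genes. Its levels ran from 3712 to 4744 TPM under NRF and from 3540 to 4789 TPM under DRF, overlapping at all 7 times. Its amplitudes were 0.03 under both regimens (limma adjusted p = 0.748 under NRF and 0.767 under DRF), and its level differed by -0.01 (0.913).

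Of all genes tested, 28.3% differed in mean level between regimens, 2.67% being higher and 25.6% lower under DRF, and 2 of the 9 sarcomere genes did. The median level difference was -0.01 over the 9 genes and -0.05 over all genes tested. The direction of the background depended on the scaling: 370 of 3918 calls were higher under DRF on the TPM scale, and 1156 of 2605 after scaling by the median of ratios. Actc1 was called lower (-0.14, limma adjusted p = 0.0179) and Tnnt2 higher (0.15, 0.00292) after that scaling too, and Mybpc3 was then also called higher (0.12, 0.0187). Leaving out the 2 libraries against their labels, 30.2% of genes differed in level.

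Tests at single times called 11.3% of genes (ZT0), 0.447% (ZT4), 0.389% (ZT8), 7.74% (ZT12), 6.94% (ZT16), 14.8% (ZT20) and 8.89% (ZT24), and 32.9% of genes were called at 1 or more times. Of the 9 genes, 2 were called at ZT0 (Tcap and Actc1), 2 at ZT12 (Tcap and Myh6), 1 at ZT16 (Myl2) and 1 at ZT24 (Tcap), so 4 of 9 differed at 1 or more times. Without the 2 libraries against their labels, the shares were 3.45% at ZT4, 3.61% at ZT8 and 8.15% at ZT16, and Tcap was then called at ZT8 and ZT16 as well.

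**Figure D3:**
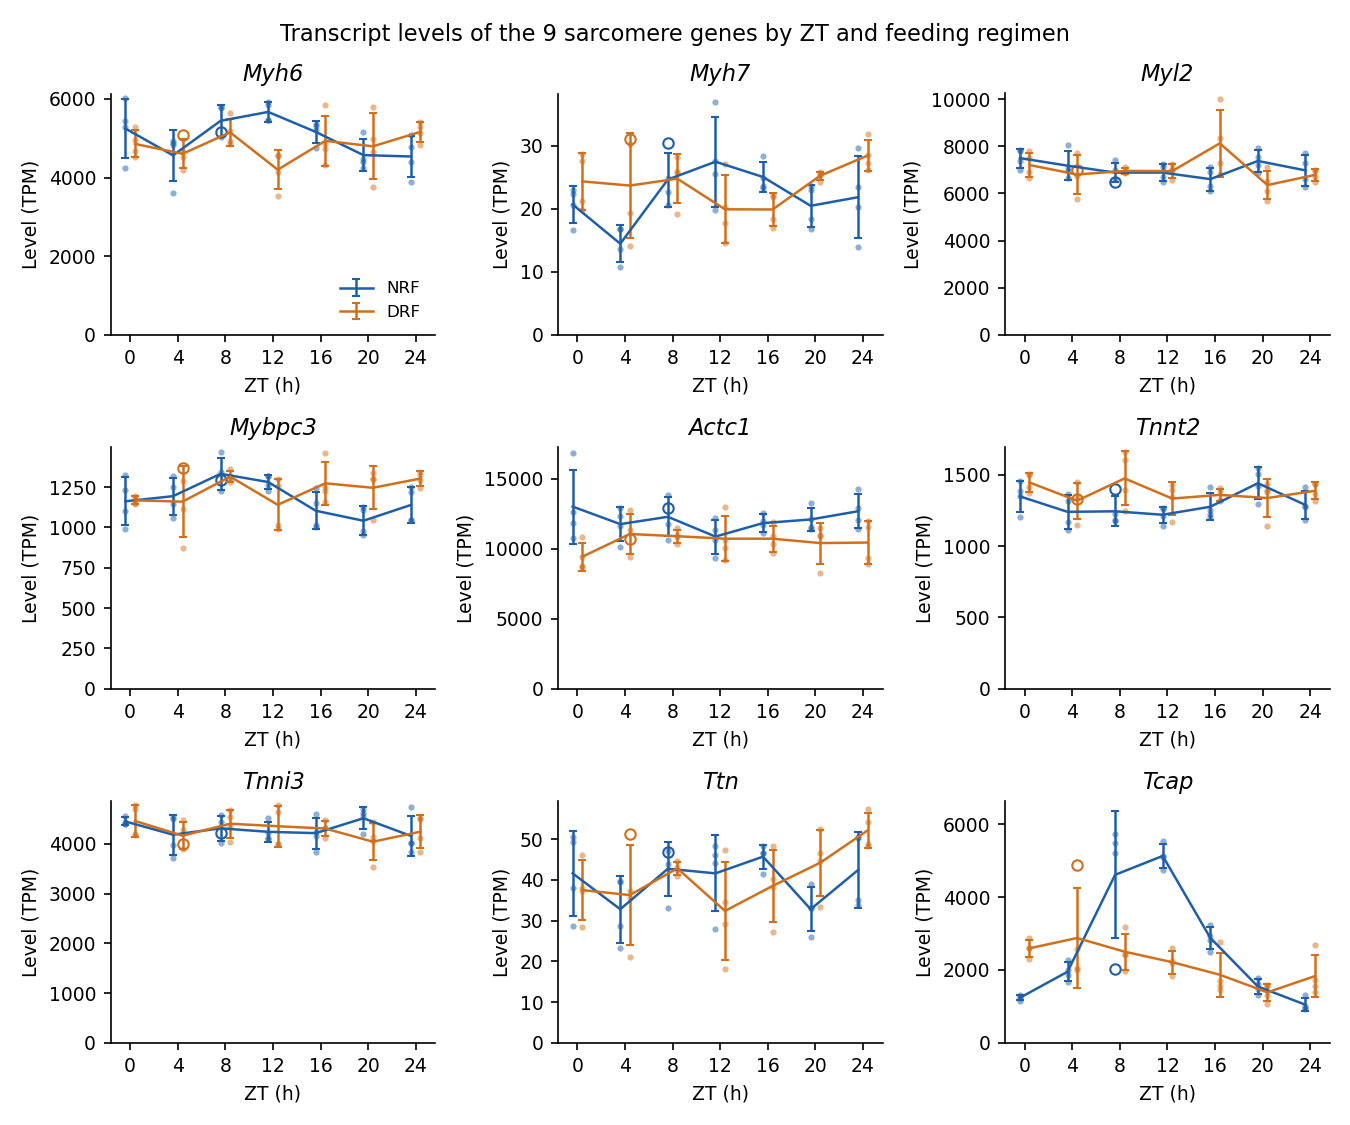
Level (TPM, linear axes that differ between panels) against zeitgeber time (h) for the 9 sarcomere genes under NRF and DRF. Points are single libraries, bars are the mean ± SD (n = 4), and open circles are the 2 libraries that went against their labels. With all libraries, the regimens separate with no overlap for Tcap at ZT0, ZT12 and ZT24, for Myh6 at ZT12 and for Myh7 at ZT16 and ZT20. They overlap elsewhere, and the share of all genes that separate in this way was not counted.

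Ttn (chromosome 2, 76703980 to 76982547, minus strand), with 116825 bases of exon the longest of the 9 genes, ran from 23.1 to 50.5 TPM under NRF and from 18.2 to 57.3 TPM under DRF. Its groups overlapped at all 7 times. The amplitude was 0.10 under NRF (limma adjusted p = 0.574) and 0.16 ± 0.092 under DRF (0.330), and the level differed by 0.01 (0.958). Its level moved with a property of the libraries: over 56 libraries, r was 0.80 with the length slope.

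The length slope ran from -0.0821 to 0.0673 and also moved with Myh6 (r = 0.62), Myh7 (0.53), Mybpc3 (0.50), Myl2 (-0.43) and Tnni3 (-0.37), and little with Tcap (0.13). These correlations are descriptions over 56 libraries, and the slope is itself drawn from genes of the same libraries. With the slope as a covariate, the limma adjusted p of Myh6 under NRF was 0.219 and that of its different rhythm 0.318. That of Myh7 under NRF was 0.0818 and that of its different rhythm 0.0246. Tcap and Mybpc3 remained called: Tcap had an NRF amplitude of 1.15 (6.47e-11) and a DRF peak that came 4.88 h earlier (difference -4.88 h, 3.58e-08), and Mybpc3 under NRF had an adjusted p of 0.00698.

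Atrial markers varied between libraries. Of 5 atrial markers, 5 were listed, and their summed level ran from 94.2 to 5436 TPM, with a median of 604 under NRF and 1785 under DRF, while Sln and Bmp10 were at 0 in some libraries. Over 56 libraries its r was -0.37 with Actc1 and 0.20 with Tnnt2. With the atrial level as a covariate the Actc1 difference was -0.16 (limma adjusted p = 0.00552), the Tnnt2 difference 0.10 (0.0277), Mybpc3 was also called higher (0.10, 0.0390), and the Tcap difference at ZT24 had an adjusted p of 0.0616. With this covariate the different rhythm of Myh6 was not called (limma adjusted p = 0.0515), and Tcap was called at ZT16 (-0.72, 0.0469). The part of the atrial level beyond this covariate was not tested. In mean level, where 28.3% of all genes tested were called, 4 of 5 endothelial genes differed (summed median 972 TPM under NRF and 886 TPM under DRF). So did 3 of 5 fibroblast genes, 2 of 5 immune genes (Cd3e was not tested), 1 of 5 atrial genes and 1 of 4 smooth muscle genes. Of the listed skeletal muscle genes 1 of 4 differed (Tnnt3 was not tested), and of the adipocyte genes 0 of 5. Summed blood markers ran from 1667 to 66737 TPM with 0 of 5 genes called. The part of these cell types in the level differences was not tested, except that with the blood genes left out of the TPM sum the differences were -0.20 for Actc1 (limma adjusted p = 0.00103) and 0.09 for Tnnt2 (0.0110).

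The level of Tcap was then read against that of Myh6 in the same library, as the ratio of their TPM values. Under NRF, 4 libraries had ratios of 21.8% to 26.8% at ZT0 (23.8% ± 2.20, SD) and of 81.2% to 102% at ZT12 (90.7% ± 9.00). At ZT8 the NRF ratios were 39.2%, 95.0%, 98.7% and 104%, the lowest being the library labelled NRF ZT8 replicate 1. Tcap transcripts thus came close to Myh6 transcripts in number around ZT8 to ZT12 under NRF. Under DRF the group means ran from 29.0% at ZT20 to 61.5% at ZT4, where the library labelled DRF ZT4 replicate 1 had 96.1%.

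The log2 ratio of Tcap to Myh6 had an amplitude of 0.98 ± 0.077 under NRF with a peak at ZT11.0 (permutation test over the libraries, p = 1e-05, the smallest that 100000 draws can give; adjusted p = 4e-05 over 8 tests). Under DRF the amplitude was 0.41 ± 0.107 with a peak at ZT6.84 (permutation p = 0.00301, adjusted 0.00803). The rhythm of the ratio differed between regimens (permutation p = 1e-05, adjusted 4e-05). Its mean level over the 7 times, with ZT0 and ZT24 both counted, differed by -0.02 (permutation p = 0.898), being higher under DRF at 3 of 7 times. Without the 2 libraries against their labels the mean level differed by -0.10 (permutation p = 0.424). The amplitudes were 1.05 and 0.35, both called, without the 2 libraries against their labels.

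The ratio of Myh7 to Myh6 addresses the balance of the slow and the fast myosin. Under NRF it was lowest at ZT4, where 4 libraries had 0.280% to 0.343% (0.315% ± 0.0312), and near 0.486% at ZT12 and ZT16. Under DRF the group means ran from 0.407% at ZT16 to 0.552% at ZT24. The NRF amplitude of the log2 ratio was 0.21 ± 0.073 with a peak at ZT15.7 (permutation p = 0.0252, adjusted 0.0336), the DRF amplitude was 0.13 ± 0.070 (permutation p = 0.180, adjusted 0.206), and the rhythms differed (permutation p = 0.00743, adjusted 0.0149). The ratio was higher under DRF by 0.18 on the log2 scale over all times and at 5 of 7 times (permutation p = 0.0199, adjusted 0.0318). The NRF rhythm of this ratio was lost without the libraries numbered 2 (adjusted permutation p = 0.0787), 3 (0.110) or 4 (0.136), without ZT4 (amplitude 0.093, adjusted permutation p = 0.501), and without ZT0 (0.0953), ZT16 (0.117) or ZT20 (0.0682). The level call was lost without the libraries numbered 2 (adjusted permutation p = 0.0718), 3 (0.110) or 4 (0.126), and without ZT0 (0.0953), ZT4 (0.210), ZT20 (0.0846) or ZT24 (0.0601). The different rhythm was lost without the libraries numbered 3 (0.0981) or 4 (0.06) and without ZT4 (0.105) or ZT16 (0.172).

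**Figure D4:**
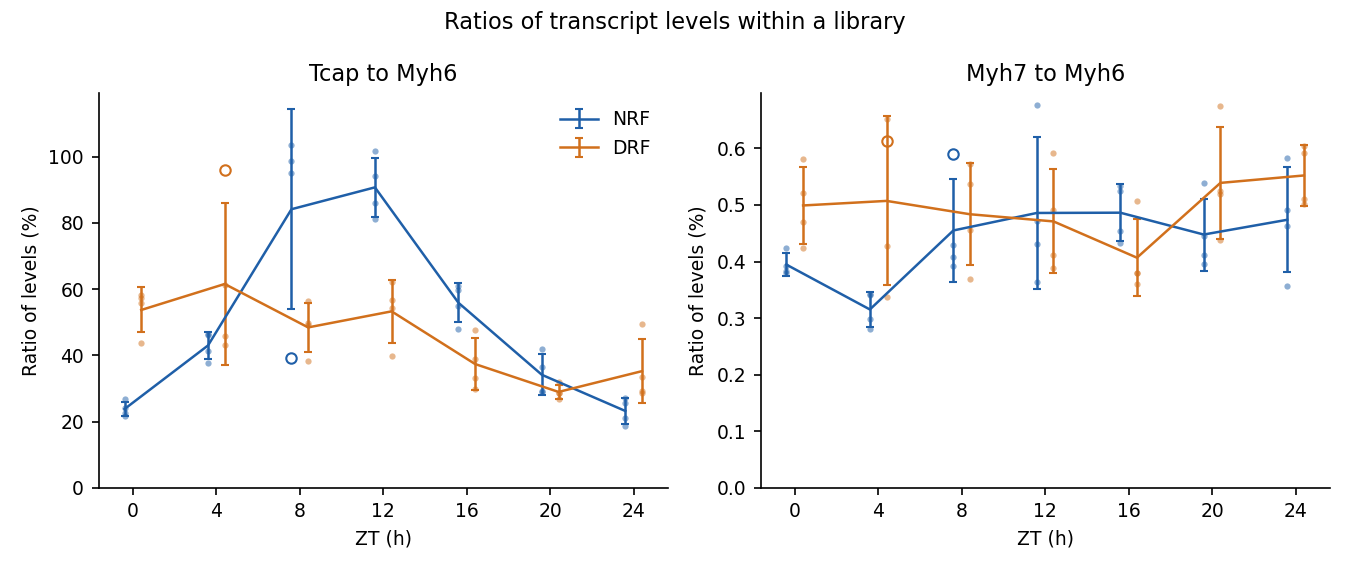
Ratio of Tcap to Myh6 and of Myh7 to Myh6 (percent of the Myh6 TPM) against zeitgeber time (h) under NRF and DRF. Points are single libraries, bars are the mean ± SD (n = 4), and open circles are the 2 libraries that went against their labels. Tcap nears the Myh6 level at ZT8 and ZT12 under NRF, and Myh7 stays below 1% of Myh6 in all libraries.

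For comparison with the clock of the same hearts, 4 clock genes were read in the same fits. Dbp, a clock output factor, had an amplitude of 2.47 with a peak at ZT11.3 under NRF and 1.71 at ZT9.19 under DRF, a shift of -2.14 h. Per2, a repressor of the clock, shifted by -1.49 h, Arntl, which encodes BMAL1, by -1.71 h, and Nr1d1, which encodes the repressor REV-ERB alpha, by -0.78 h. All 4 were called different in rhythm (limma adjusted p from 3.19e-07 to 0.00294). The fitted shift of Tcap, -4.78 h with an interval of -6.57 to -2.99, was larger than the 4 fitted shifts, and the difference between Tcap and each clock gene was not tested.

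The genes whose profile over the 14 group means was most like that of Tcap were Fig4 (Pearson r = 0.97, a lipid phosphatase), Ctf1 (0.93, cardiotrophin 1), Gm17971 (0.93), Uckl1os (0.93), 1810013L24Rik (0.92) and Slc44a2 (0.92, a choline transporter-like protein). Fig4 peaked at ZT11.2 under NRF and ZT6.08 under DRF, with amplitudes of 0.31 and 0.16. The profiles most like that of Myh6 were those of Tsc2 (0.92), Rbm20 (0.90, a splicing regulator of titin) and Sptb (0.89, beta-spectrin). These are descriptions over 14 points that share their libraries.

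Of 55 further sarcomere, Z-disc and M-band genes, 53 were listed and 48 tested. Of the 48, 17 were rhythmic under NRF (37.3% of all genes tested), 16 under DRF (32.4%) and 9 under both (17.7%), and 14 had a different rhythm (27.7%). In mean level, 3 were higher (2.67%) and 16 lower (25.6%) under DRF, and 22 differed at 1 or more times (32.9%). These counts lay mostly near the shares over all genes. The median amplitude was 0.126 under NRF (0.103 for all genes tested) and 0.108 under DRF (0.10), and the amplitude was larger under NRF in 25 of the 48. Under NRF no gene on the list had a fitted amplitude as large as that of Tcap. Under DRF the atrial light chains Myl7 (0.77) and Myl4 (0.58) and the myosin-binding protein homologue Mybphl (0.49) had larger fitted amplitudes than Tcap, and their rhythms were not called under either regimen. The largest NRF amplitude among the called genes was that of Ankrd23, a titin-binding ankyrin repeat protein, with 0.60 under NRF (peak ZT1.82) and 0.16 under DRF (limma adjusted p of the difference 5.35e-05).

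Among the named genes of a different rhythm, the leiomodins, which nucleate thin filaments, did not move alike. Lmod3 was rhythmic under DRF (amplitude 0.33, peak ZT7.73, limma adjusted p = 1.04e-05) and not called under NRF (0.05, 0.397), with a called difference (0.000505). Lmod2 had amplitudes of 0.26 under NRF and 0.31 under DRF, with peaks at ZT11.3 and ZT18.4 (limma adjusted p of the difference 2.98e-06). The M-band proteins myomesin 2 (Myom2) and myomesin 3 (Myom3) peaked at ZT10.1 and ZT7.69 under NRF and at ZT0.324 and ZT2.76 under DRF (0.00015 and 0.0019). Xirp2 (0.0463), Ankrd1 (0.0392), a stretch-responsive repeat protein, and Nexn (0.0407), a Z-disc actin-binding protein, also passed with amplitudes of 0.15 to 0.39. Genes were named by the larger of their 2 amplitudes, not by the difference, and unnamed genes passed with limma adjusted p down to 3.19e-07 (Mylk3).

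In mean level, Acta1, the skeletal alpha-actin that the heart also expresses, was lower under DRF by a log2 difference of -0.67 ± 0.127 (limma adjusted p = 0.000172), next to the lower level of Actc1. Acta1 and Actc1 share no 50-base window in their longest transcripts. Myom2 was higher by 0.44 ± 0.052 (limma adjusted p = 8.18e-08) and Nexn by 0.18 (0.0132). Mybpc2 (-0.34), Pdlim7 (-0.22), Flnc (-0.21), Lmod3 (-0.19) and Pdlim1 (-0.18), which encode a myosin-binding protein, a filamin, a leiomodin and a pair of PDZ-LIM proteins, were lower (limma adjusted p from 3.63e-05 to 0.00326).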

How the data were processed

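RNA of 56 mouse heart samples was sequenced as poly-A libraries (paired 150-base reads, NEBNext Ultra, no molecular identifiers). Per the labels, reads were aligned with HISAT2 2.0.5 to mm10 and counted with featureCounts 1.5.0-p3. The values the authors deposited carry the name TPM, but they are in another unit, the log2 of 1 plus the depth-scaled reads divided by exon length, which compresses ratios. The coefficient of variation of Tcap was 6.97% on the deposited values and 54.3% on linear TPM. Whole reads were therefore recovered (99.9996% of the values under 100000 reads within 0.1 of a whole read) and linear TPM computed. Of 22864 genes, 22852 were in GENCODE M21. Its exon length gave whole reads for 22025 genes and was kept for 7 genes too abundant to check, Myh6 among them. For the other 832 the length was searched from the values.

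Tests ran on log2(TPM + 1) with a mean TPM of at least 1, in limma 3.58.1 (R 4.3.3, trend, Benjamini-Hochberg, 0.05), as a 24 h cosine per regimen, an interaction F test, mean levels and single times. Ratios used permutation tests (Python 3.11.15, numpy 2.4.6, scipy 1.17.1). The same steps were tested on simulated data. Alternatives were another scaling, pseudocount, filter or threshold, the deposited values, a replicate block, covariates, and leaving out libraries or times. The members, the lists and the alternatives were chosen with earlier results of these data known. Every member was named, together with 4 clock genes and the genes of highest likeness. Of the further sarcomere list, up to 8 genes per kind of call were chosen, by the larger amplitude for rhythm and the absolute difference for level. Reads are not independent molecules, so precision was taken from the spread between 4 libraries. Sequences came from RefSeq (GRCm38.p6).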

Additional observations from a re-analysis of the deposited data

Results flagged for a closer look

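In 126 groups of 4 libraries (9 genes in 14 groups), 5 held a library whose gap to its nearest neighbour took a larger part of the group's range than Dixon's critical value at the 95% level, and chance gives about 1 in 20 groups. The library labelled NRF ZT8 replicate 1 had a Tcap level of 2024 TPM, against 5207 to 5729 TPM in the other 3 of its group, and it also went against its label over genes outside the sarcomere list. DRF ZT20 replicate 2 was low for Actc1 (8241 TPM, against 10910 to 11460) and for Mybpc3 (1049 TPM, against 1298 to 1338). NRF ZT4 replicate 1 was low for Myh6 (3598 TPM, against 4835 to 4937). DRF ZT8 replicate 1 was high for Myl2 (7132 TPM, against 6889 to 6915), in a group with a narrow range.

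The rhythm differed between DRF and NRF, by the limma interaction F test, for Tcap (adjusted p = 1.63e-08), Myh7 (0.00435) and Myh6 (0.0499). The value for Myh6 lay on the threshold.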

How the results depend on the processing

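Tcap was called rhythmic under NRF and different between regimens under every alternative run, with a fitted shift of -5.34 to -3.78 h, and the log2 ratio of Tcap to Myh6 kept an NRF amplitude of 0.94 to 1.05. The count of sarcomere genes rhythmic under NRF fell from 4 to 2 at an adjusted p under 0.01, with the length slope as a covariate, without ZT12 and without ZT16, and ran from 1 to 5 when a replicate number or a library was left out. The DRF count went from 1 to 0 at an adjusted p under 0.01 and without ZT20, to 2 without ZT4, and ran from 0 to 2 when a replicate number or a library was left out. The count of different rhythms fell from 3 to 1 without ZT12 and ran from 1 to 4 in the leave-outs. The count of level differences fell from 2 to 1 on the deposited values, at an adjusted p under 0.01 and without ZT0, ZT8, ZT16 or ZT24, with 1 to 2 in the leave-outs, and rose to 3 with Mybpc3 after scaling by the median of ratios and with the atrial level as a covariate. The count at single times, 4, ran from 1 to 5 in the leave-outs. The NRF amplitude of the Myh7 to Myh6 ratio was no longer called without ZT0 (0.21, adjusted permutation p = 0.0953), ZT4 (0.093, 0.501), ZT16 (0.25, 0.117) or ZT20 (0.23, 0.0682), and was 0.19 to 0.23 when a replicate number was left out (0.0225 to 0.136). The fitted Myh6 phase difference, -11.0 h, was -0.61 h without ZT12, and the rhythm was then not called different (limma adjusted p = 0.686). The cause of these changes was not tested, beyond the smaller number of libraries in each leave-out.

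With a replicate block, Myh6 lost its NRF call (limma adjusted p = 0.0539) and its different rhythm (0.0552), Tnnt2 gained an NRF call (0.0355), and the Tcap shift was -4.78 h. The replicate numbers do not pair the libraries: over 364 pairs of the same number the deviations of the libraries from their group means had a median r of 0.012, with 92 above 0.1.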
